A study of Mus musculus with 12 samples.

Results

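The Notch pathway and secretory fate regulators described here were 9 genes listed by symbol, chosen with earlier results of these data known. They were the receptors Notch1 and Notch2, the ligands Dll1, Dll4 and Jag1, the Notch target Hes1, and the secretory lineage factors Atoh1, Spdef and Gfi1. They were found among 48448 genes by summing the deposited transcript values of each gene on the FPKM scale (fragments scaled to transcript length and to the size of the library), and all 9 were among the 16970 genes that were tested. Of the 12 libraries, 3 came from each of 4 groups of mice of the C57BL/6 strain in a model of cancer that follows colitis. These were adjacent colon and colon tumours from control mice labelled Synbindinflox (flox), and adjacent colon and tumours from mice labelled SynbindinΔIEC (ΔIEC), whose intestinal epithelial cells lacked Synbindin. Trappc4 encodes Synbindin, which belongs to the TRAPP complexes that tether vesicles. The driver of the recombinase, the agents and doses of the cancer model, the ages of the mice and the position of each sample along the colon are not given in the labels. The series title speaks of scraped epithelium and the extraction protocol of dissected tumours and adjacent tissue. Nothing in the labels says that libraries of a group came from separate animals, so the p-values measure only the spread between these libraries.

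Notch signalling acts between touching cells. A Delta-like or Jagged ligand on one cell opens a Notch receptor on its neighbour to cleavage, and the freed intracellular domain joins the DNA-binding protein RBPJ to turn on repressors such as Hes1. In the intestinal crypt, Hes1 represses Atoh1. Cells with active Notch become absorptive, while cells that escape it keep Atoh1, make Delta-like ligands themselves and become goblet, enteroendocrine or other secretory cells. Gfi1 and Spdef act below Atoh1, and Spdef drives goblet cell maturation.

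In flox mice tumours had more of both receptors and far less of all 3 secretory factors than adjacent colon, while the ligands and Hes1 did not pass the test. Atoh1 was 5.15-fold lower, Spdef 5.88-fold lower and Gfi1 2.02-fold lower, and Notch1 was 2.27-fold and Notch2 2.81-fold higher. In ΔIEC mice Atoh1, Spdef and Gfi1 were 5.77-fold, 6.30-fold and 2.85-fold lower and Notch1 was 1.64-fold higher, while Notch2 did not pass. No member passed the test between ΔIEC and flox libraries in either tissue. Differences were taken on log2(FPKM + 1), with limma over all 16970 genes and Benjamini-Hochberg adjustment, and a gene was called at an adjusted p below 0.05. For scarce genes such as Gfi1 this scale gives a smaller change than the FPKM ratio. Gfi1 also reached the level asked of tested genes only through its adjacent libraries. A lower level in tumours was therefore built into its being tested.

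The promoters of the 3 factors that fell in both genotypes are shown so that the sequence each gene starts from can be read beside its values. The RefSeq promoter table on GRCm38.p6 matched 8 of the 9 members with 10 windows, each from 250 bases before to 50 bases after a start site. Hes1 had no entry. Only the 250 bases before the RefSeq start are printed, 5′ to 3′ on the gene's strand. Capitals mark CACGNG (a site class bound by Hes repressors) in Atoh1, TGGGAA (the core bound by RBPJ) in Spdef, and CANNTG (the E-box bound by Atoh1 and other basic helix-loop-helix factors) in Gfi1, found on either strand. Atoh1 lay on chr6:64728875-64729124 (plus strand), Spdef on chr17:27728952-27729201 (minus strand) and Gfi1 on chr5:107725806-107726055 (minus strand). In GENCODE the Gfi1 gene begins further upstream than this start, so 231 of its 250 printed bases lie inside the annotated gene, as do 4 of Spdef and 0 of Atoh1.
Atoh1: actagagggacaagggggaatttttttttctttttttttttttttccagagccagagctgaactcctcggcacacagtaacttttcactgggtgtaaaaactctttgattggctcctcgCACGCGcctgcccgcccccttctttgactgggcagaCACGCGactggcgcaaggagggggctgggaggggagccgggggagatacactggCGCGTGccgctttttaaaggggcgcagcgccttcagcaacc
Spdef: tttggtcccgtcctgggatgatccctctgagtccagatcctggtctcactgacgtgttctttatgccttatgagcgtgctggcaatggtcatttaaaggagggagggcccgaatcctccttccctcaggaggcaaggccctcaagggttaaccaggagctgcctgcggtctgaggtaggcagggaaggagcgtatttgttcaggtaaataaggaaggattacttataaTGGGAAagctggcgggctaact
Gfi1: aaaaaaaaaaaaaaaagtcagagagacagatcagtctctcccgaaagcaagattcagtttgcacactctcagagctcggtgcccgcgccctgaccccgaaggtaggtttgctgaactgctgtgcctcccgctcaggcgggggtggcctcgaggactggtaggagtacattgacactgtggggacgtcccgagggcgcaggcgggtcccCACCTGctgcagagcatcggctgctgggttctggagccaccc
The Atoh1 stretch held 3 CACGNG matches, at -131, -95 and -41 from the start, and another lay at 15, within the transcript. At least 1 match was present in 27.5% of all 32851 promoter windows of the table, and 4 or more in 0.396%. The only TGGGAA among the 10 windows was in Spdef, at -22, and 25.6% of all windows held one. Gfi1 had an E-box at -42, and 72.3% of all windows held one. The capitals mark a different motif in each gene, chosen from those that its window held. The Atoh1 and Spdef windows held no E-box, and the Spdef and Gfi1 windows held no CACGNG. Also searched was CACNAG, present in 42.5% of all windows. It had 1 match in the Atoh1 window, at 23, and none in those of Spdef and Gfi1. CANNTG and CACGNG can overlap, since CACGTG fits both. A match describes letters only, and none of these sites was tested for binding.

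Several facts of the libraries bear on the members. Trappc4, the deleted gene, separated the genotypes without overlap in each tissue (ΔIEC 11.1 ± 1.3 against flox 17.0 ± 0.285 FPKM in adjacent colon and 11.3 ± 1.39 against 19.0 ± 1.73 in tumours, SD, n = 3 each), with limma adjusted p of 0.931 and 1. Markers of epithelium were high in every library (mean log2(FPKM + 1) of 10 genes 8.10 to 9.04 in adjacent colon and 8.01 to 8.50 in tumours), and no marker of endothelium, muscle, fibroblasts, macrophages, T cells, B cells or neutrophils was at 0 in all libraries. Neutrophil markers (mean log2(FPKM + 1) of 8 genes) were at 0.69 to 1.57 in adjacent libraries and 3.36 to 5.02 in tumours, with no overlap. Macrophage markers (10 genes) were at 2.24 to 4.01 and 3.52 to 4.27, with medians of 2.98 and 4.01. The part of these cells in the members' differences was not tested. The mean over the endothelial, muscle and fibroblast lists, called the stromal mean below, ran from 1.90 to 3.91 in adjacent libraries and from 3.08 to 4.21 in tumours. The adjacent libraries also differed in Hoxb13, a Hox gene of the most distal colon. Hoxb13 was at 120.5, 10.2 and 1.56 FPKM in flox adjacent replicates 1, 2 and 3, at 30.1, 39.5 and 102.9 in ΔIEC adjacent replicates 1, 2 and 3, and between 40.9 and 53.4 in all 6 tumours. Hoxb8, a more proximal Hox gene, ran the other way, with 0.0997 and 0.192 FPKM in flox adjacent replicate 1 and ΔIEC adjacent replicate 3, from 1.60 to 13.5 in the other 4 adjacent libraries, and 0.165 to 0.835 in tumours. The 2 adjacent libraries with Hoxb13 above the lowest tumour, compared alone below, were also above every tumour. ΔIEC adjacent replicate 2, at 39.5 FPKM, lay just under the lowest tumour and was left out. That comparison is therefore not matched in Hoxb13. The part of position along the colon in the differences below was not tested beyond the values given beside them. The description labels give the same number to an adjacent and a tumour library in 5 cases, and do not say what it stands for. With that number as a block the ΔIEC calls of Notch1, Spdef and Gfi1 described below did not pass (limma adjusted p = 0.0583, 0.0906 and 0.0754).

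Notch1, the main receptor of the crypt epithelium, lies on GRCm38 chromosome 2 from 26457903 to 26516663 (minus strand). Its level was 10.0, 10.2 and 8.37 FPKM in flox adjacent colon and 8.98, 12.1 and 10.1 in ΔIEC adjacent colon (replicates 1, 2 and 3). Tumours had 19.6, 29.9 and 20.4 FPKM in flox and 12.8, 21.6 and 19.5 in ΔIEC mice. Every tumour library lay above every adjacent library of its genotype, and ΔIEC tumour replicate 1 was the lowest of the 6. The log2 difference was 1.18 (SE 0.211) in flox mice (limma adjusted p = 0.00233) and 0.71 (SE 0.211) in ΔIEC mice (adjusted p = 0.0297). In bulk tissue a change in the share of cells that express a gene and a change in RNA per cell cannot be told apart. The ΔIEC call was lost when any of 4 libraries was left out, with adjusted p of 0.0951 without ΔIEC adjacent replicate 1, 0.0696 without adjacent replicate 3, 0.101 without tumour replicate 2 and 0.0787 without tumour replicate 3. It was also lost with no filter on low values (adjusted p = 0.0532) and in a fit of the compared groups only (0.0742). Against the 2 adjacent libraries with Hoxb13 above the lowest tumour, flox replicate 1 and ΔIEC replicate 3, the differences were 1.11 in flox (adjusted p = 0.0879) and 0.74 in ΔIEC mice (adjusted p = 0.211), and neither passed.

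Notch2, the other receptor found in the intestinal epithelium and also made by vessel, muscle and immune cells, lies on chromosome 3 from 98013527 to 98150361 (plus strand). Flox adjacent libraries had 4.35, 2.64 and 3.97 FPKM and flox tumours 11.9, 13.4 and 10.5. ΔIEC adjacent libraries had 2.08, 7.29 and 11.1 FPKM, and ΔIEC tumours 9.66, 12.7 and 10.6. The flox groups were far apart, whereas ΔIEC adjacent replicate 3 was as high as the tumours. The difference was 1.49 (SE 0.399, limma adjusted p = 0.0159) in flox mice and 0.82 (SE 0.399, adjusted p = 0.148) in ΔIEC mice. The difference between these 2 differences was -0.67, with a 95% interval from -1.93 to 0.58 and an adjusted p of 1 for the interaction. The flox call was lost without flox adjacent replicate 2 (1.32, adjusted p = 0.063) and without flox tumour replicate 2 (1.41, adjusted p = 0.05), and Notch2 passed in ΔIEC mice without adjacent replicate 3 (1.24, adjusted p = 0.0343). Against the 2 adjacent libraries with high Hoxb13 it was 1.27 in flox (adjusted p = 0.0222) and -0.02 in ΔIEC mice (adjusted p = 0.959).

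Within adjacent colon the stromal mean moved with Notch2. The adjacent libraries with the lowest Notch2, ΔIEC replicate 1 and flox replicate 2, also had the lowest stromal means, 1.95 and 1.90. The libraries with the highest adjacent Notch2, ΔIEC replicates 3 and 2, had stromal means of 3.45 and 3.91 and macrophage marker means of 4.01 and 3.90. Flox tumour replicate 3 and ΔIEC tumour replicate 1 (stromal means 3.08 and 3.09) had 10.5 and 9.66 FPKM of Notch2. At like stromal means, flox adjacent replicates 3 and 1 (3.02 and 3.36) had 3.97 and 4.35 FPKM. ΔIEC adjacent replicate 3 (3.45) had 11.1 FPKM, as much as tumours. The adjacent colon was then limited to the 3 libraries with the higher stromal means, 1 of flox (replicate 1) and 2 of ΔIEC mice (replicates 2 and 3). Flox replicate 1 is also the flox library with high Hoxb13 used above. In flox mice the same libraries are therefore compared in both, and stroma and position cannot be told apart. Notch2 passed in flox mice (1.27, limma adjusted p = 0.0239), while Notch1 had 1.11 in flox (adjusted p = 0.0647) and 0.62 in ΔIEC mice (adjusted p = 0.133) and did not pass. With the 3 lower ones, 2 of flox and 1 of ΔIEC mice, Notch2 differed by 1.60 in flox (adjusted p = 8.83e-04) and by 1.95 in ΔIEC mice (adjusted p = 0.00194), and Notch1 by 1.22 (adjusted p = 0.00908) and by 0.90 (adjusted p = 0.0711). A lone library in these fits is assumed to vary like those of the other groups. Within adjacent colon Notch1 stayed between 8.37 and 12.1 FPKM. Its highest value was in ΔIEC replicate 2, which had the highest stromal mean (3.91), and its lowest in flox replicate 3 (3.02). The part of stromal cells in the receptor differences was not tested beyond these values.

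**Figure D1:**
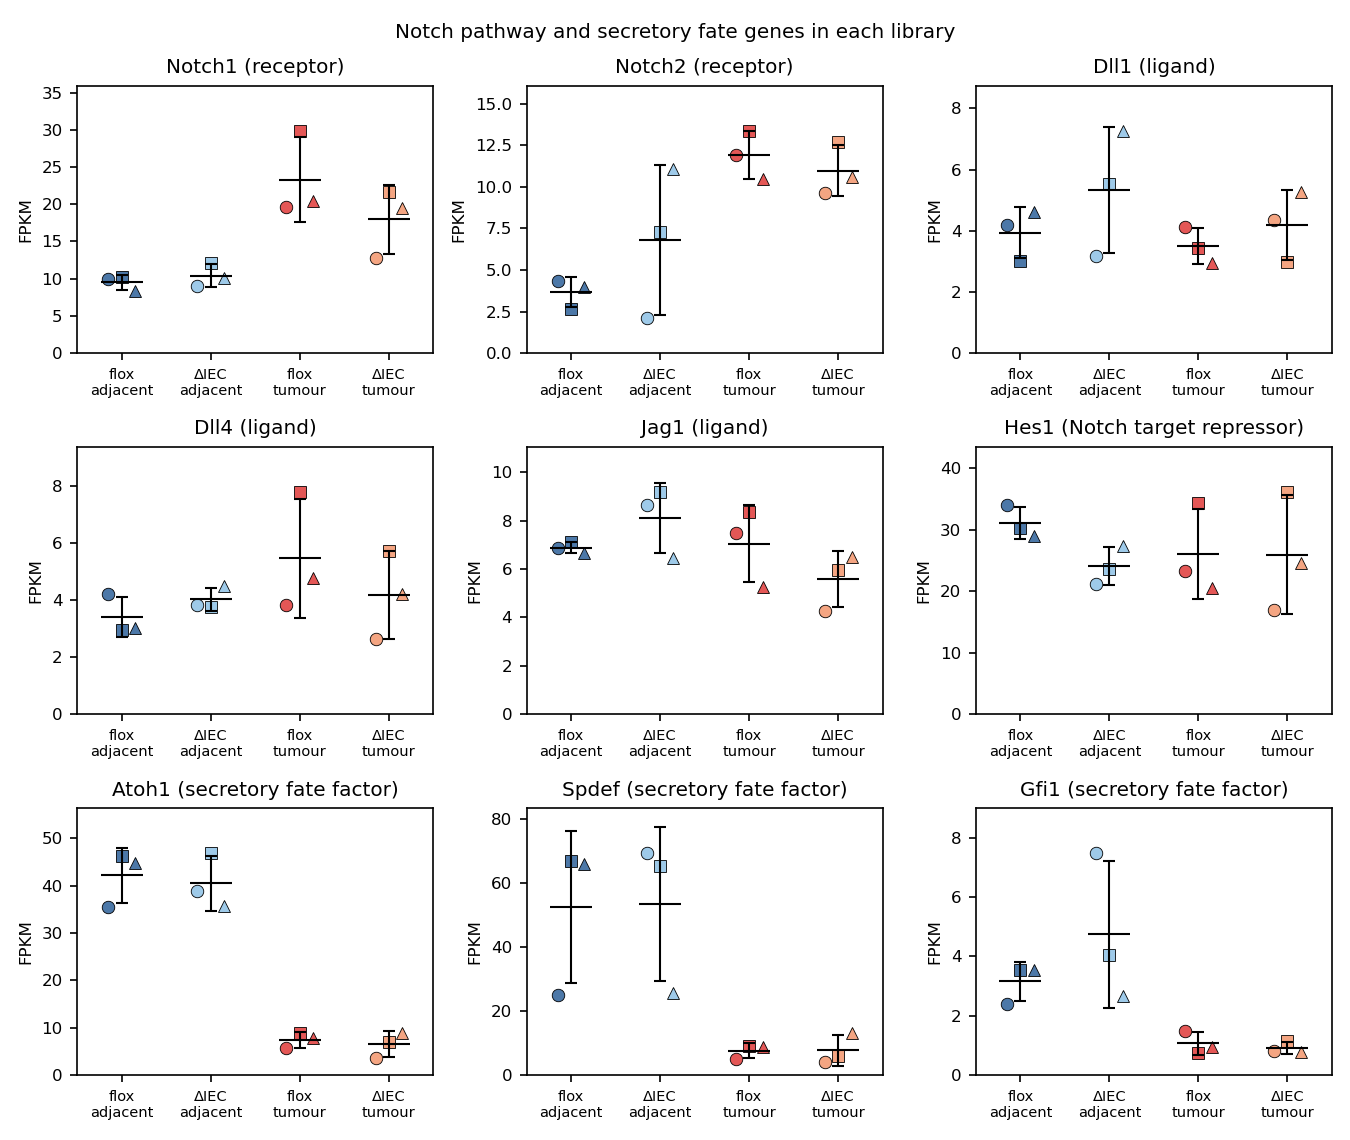
FPKM of the 9 genes in each library (vertical axes from 0). Circles, squares and triangles are replicates 1, 2 and 3, and black bars give group means with SD (n = 3). Atoh1, Spdef and Gfi1 are lower in all tumours than in adjacent colon of the same genotype, and Spdef is lowest among adjacent libraries in flox replicate 1 and ΔIEC replicate 3.

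The ligands did not pass the test in any comparison. Dll1, the Delta-like ligand carried by secretory progenitors (chromosome 17, 15367354 to 15376872, minus strand), ranged from 3.01 to 7.28 FPKM in adjacent colon and from 2.94 to 5.26 in tumours. The tumour difference was -0.13 (95% interval -0.71 to 0.45) in flox and -0.25 (-0.83 to 0.32) in ΔIEC mice, and in flox mice it turned to 0.22 when libraries were scaled to their protein-coding total. ΔIEC adjacent replicates 2 and 3 had the most Dll1, 5.52 and 7.28 FPKM. The same 2 libraries had the highest means of B and plasma cell markers, 4.20 and 4.83, against 1.25 to 2.84 in the other 10 libraries. The genes most like Dll1 over the 12 libraries were Pou2af1 (Pearson r = 0.849), Dennd3 (0.846) and Jchain (0.826), and Pou2af1 and Jchain are genes of B and plasma cells. The part of B and plasma cells in the level of Dll1 was not tested.

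Dll4, the other Delta-like ligand of the crypt and also a ligand of endothelial tip cells (chromosome 2, 119325784 to 119335962, plus strand), had 4.20, 2.95 and 3.03 FPKM in flox adjacent colon and 3.81, 7.81 and 4.77 in flox tumours. Its ΔIEC values were 3.81, 3.75 and 4.50 FPKM in adjacent colon and 2.63, 5.71 and 4.21 in tumours. Replicate 2 was the highest tumour of each genotype, and the groups overlapped in both. The difference of 0.52 in flox mice (95% interval -0.06 to 1.10, limma adjusted p = 0.141) passed only when libraries were scaled to their protein-coding total (0.88, adjusted p = 0.0293), a scaling that moved the median of all genes by 0.36. In ΔIEC mice it was 0.00 (-0.57 to 0.58). A non-coding gene, Gm14207, overlaps the start of Dll4 on the opposite strand with a mean of 4.11 FPKM. The libraries were strand-specific per the labels' protocols, but whether counting used the strand is not given in the sources used here, so reads of this stretch may not be separable.

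Jag1, a ligand of both epithelial and stromal cells (chromosome 2, 137081456 to 137116644, minus strand), had 6.88, 7.13 and 6.64 FPKM in flox adjacent colon and 7.48, 8.36 and 5.27 in flox tumours. ΔIEC adjacent libraries had 8.66, 9.20 and 6.44 FPKM and ΔIEC tumours 4.27, 5.95 and 6.50. All groups overlapped, most narrowly in ΔIEC mice, where only tumour replicate 3 reached the lowest adjacent library. The differences were 0.01 (95% interval -0.41 to 0.43) in flox and -0.47 (-0.89 to -0.06, unadjusted p = 0.0301, limma adjusted p = 0.0824) in ΔIEC mice.

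Hes1, the repressor that Notch turns on, did not pass the test between tissues in either genotype. Its gene lies on chromosome 16 from 30064384 to 30067796 (plus strand). It stood at 34.0, 30.3 and 28.9 FPKM in flox adjacent colon and 21.2, 23.6 and 27.4 in ΔIEC adjacent colon. Tumours had 23.2, 34.4 and 20.5 FPKM in flox and 17.0, 36.2 and 24.5 in ΔIEC mice. Tumour replicate 2 of each genotype lay above every adjacent library of that genotype, the other flox tumours lay below every flox adjacent library, and the groups overlapped. The tumour difference was -0.28 (95% interval -0.84 to 0.28, limma adjusted p = 0.412) in flox mice and 0.05 (-0.51 to 0.61, adjusted p = 0.909) in ΔIEC mice, and in flox mice it was 0.16 after scaling to the protein-coding total.

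Atoh1, the factor that commits crypt cells to the secretory lineage, is a single-exon gene of chromosome 6 (64729125 to 64731245, plus strand) with 1 transcript in the table. Adjacent colon had 35.5, 46.2 and 44.8 FPKM in flox and 38.9, 47.0 and 35.6 in ΔIEC mice. Tumours had 5.64, 8.98 and 7.73 FPKM in flox and 3.54, 7.05 and 8.97 in ΔIEC mice. All 6 tumours lay far below all 6 adjacent libraries, with no overlap. The log2 difference was -2.36 (SE 0.267, limma adjusted p = 4.12e-04) in flox and -2.53 (SE 0.267, adjusted p = 6.78e-04) in ΔIEC mice. Atoh1 was called in both genotypes under every alternative run, and the 2 adjacent libraries with Hoxb13 above the lowest tumour gave -2.13 (adjusted p = 0.0375) and -2.36 (adjusted p = 0.0412).

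Spdef, the factor of goblet cell maturation, lies on chromosome 17 from 27714352 to 27728955 (minus strand). Flox adjacent libraries had 25.0, 66.6 and 65.8 FPKM and ΔIEC adjacent libraries 69.4, 65.1 and 25.7. Tumours had 4.85, 9.03 and 8.85 FPKM in flox and 4.21, 5.78 and 13.1 in ΔIEC mice. In adjacent colon 4 libraries were high and 2 were low, and all tumours lay below both. The 2 lower ones, flox replicate 1 and ΔIEC replicate 3, were the libraries with Hoxb13 at 120.5 and 102.9 FPKM. The difference was -2.56 (SE 0.517, limma adjusted p = 0.00453) in flox and -2.66 (SE 0.517, adjusted p = 0.00536) in ΔIEC mice. Against those 2 libraries alone it was -1.64 (adjusted p = 0.119) and -1.75 (adjusted p = 0.115), with 1 adjacent library for each genotype that is assumed to vary like the tumours.

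Gfi1, a zinc finger repressor below Atoh1 that also works in blood cells, lies on chromosome 5 from 107716657 to 107726036 (minus strand). It was the least abundant member, with 2.39, 3.53 and 3.54 FPKM in flox and 7.50, 4.03 and 2.68 in ΔIEC adjacent colon. Tumours had 1.5, 0.733 and 0.958 FPKM in flox and 0.813, 1.14 and 0.760 in ΔIEC mice. The groups did not overlap in either genotype. Gfi1 was tested only because its adjacent libraries reached 1 FPKM, the level asked of 3 libraries, which fewer than 3 tumours did. The difference was -1.01 (SE 0.280, limma adjusted p = 0.0182) in flox and -1.51 (SE 0.280, adjusted p = 0.00426) in ΔIEC mice. In flox mice the call was lost without adjacent replicate 2 (adjusted p = 0.0646), adjacent replicate 3 (0.0592), tumour replicate 2 (0.063) or tumour replicate 3 (0.0523), and against the adjacent libraries with high Hoxb13 the differences were -0.73 (adjusted p = 0.123) and -0.96 (adjusted p = 0.0804).

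**Figure D2:**
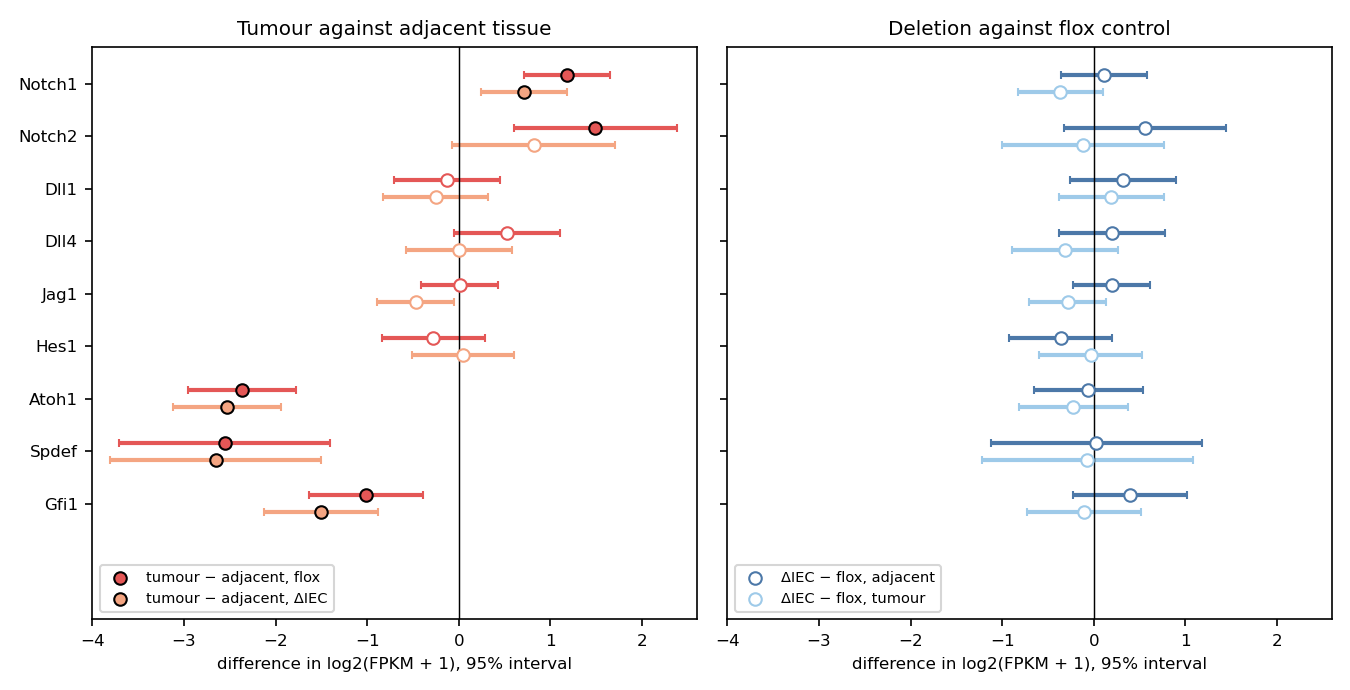
Differences in log2(FPKM + 1) with 95% intervals for the 9 genes between tumour and adjacent colon (left) and between ΔIEC and flox mice (right). Filled points passed an adjusted p of 0.05 and open points did not. Atoh1 and Spdef have the largest differences on the left, below -2.3 in both genotypes, and every interval on the right includes 0.

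In flox mice 5 of the 9 members were called, 2 higher and 3 lower, where 36.3% of all tested genes were called (16.6% higher and 19.7% lower). In ΔIEC mice it was 4, 1 higher and 3 lower, against 29.4% of all genes (13.9% higher and 15.5% lower). In flox mice groups did not overlap for 2 higher and 3 lower members, beside 26.4% and 27.1% of all genes. In ΔIEC mice this held for 1 higher and 3 lower, beside 20.8% and 22.9%. Gfi1, among the lower members in both genotypes, passed the filter on low values only through adjacent colon. A lower level in tumours was built into its being tested. The median log2 difference of the members was -0.13 in flox and -0.25 in ΔIEC mice, and that of all genes was -0.01 and -0.03. Tumours differed from adjacent colon in a large share of the transcriptome, so these counts alone do not set the members apart.

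The balance between Hes1 and Atoh1, the repressor and the gene it represses, was taken within each library as the log2 level of Hes1 minus that of Atoh1. Adjacent libraries had -0.06, -0.59 and -0.61 in flox and -0.85, -0.96 and -0.37 in ΔIEC mice. Tumours had 1.86, 1.83 and 1.30 in flox and 1.99, 2.21 and 1.35 in ΔIEC mice. In FPKM, Hes1 was 0.503 to 0.958 times Atoh1 in adjacent colon and 2.65 to 5.13 times Atoh1 in tumours, so the order of the 2 genes was turned in every tumour. The mean shift was 2.33, with an exact two-sided permutation p of 0.005, the smallest that 400 arrangements of tissue within genotype can give. Atoh1 fell by 2.36 and 2.53 in flox and ΔIEC mice, and the differences of Hes1 were -0.28 and 0.05. The shift thus restates the fall of Atoh1 given above, and its p-value is not separate support. The 2 adjacent libraries with high Hoxb13 had the values nearest to the tumours, -0.06 and -0.37, which were still below the lowest tumour. ΔIEC and flox mice differed by -0.06 in this balance (exact permutation p = 0.785).

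**Figure D3:**
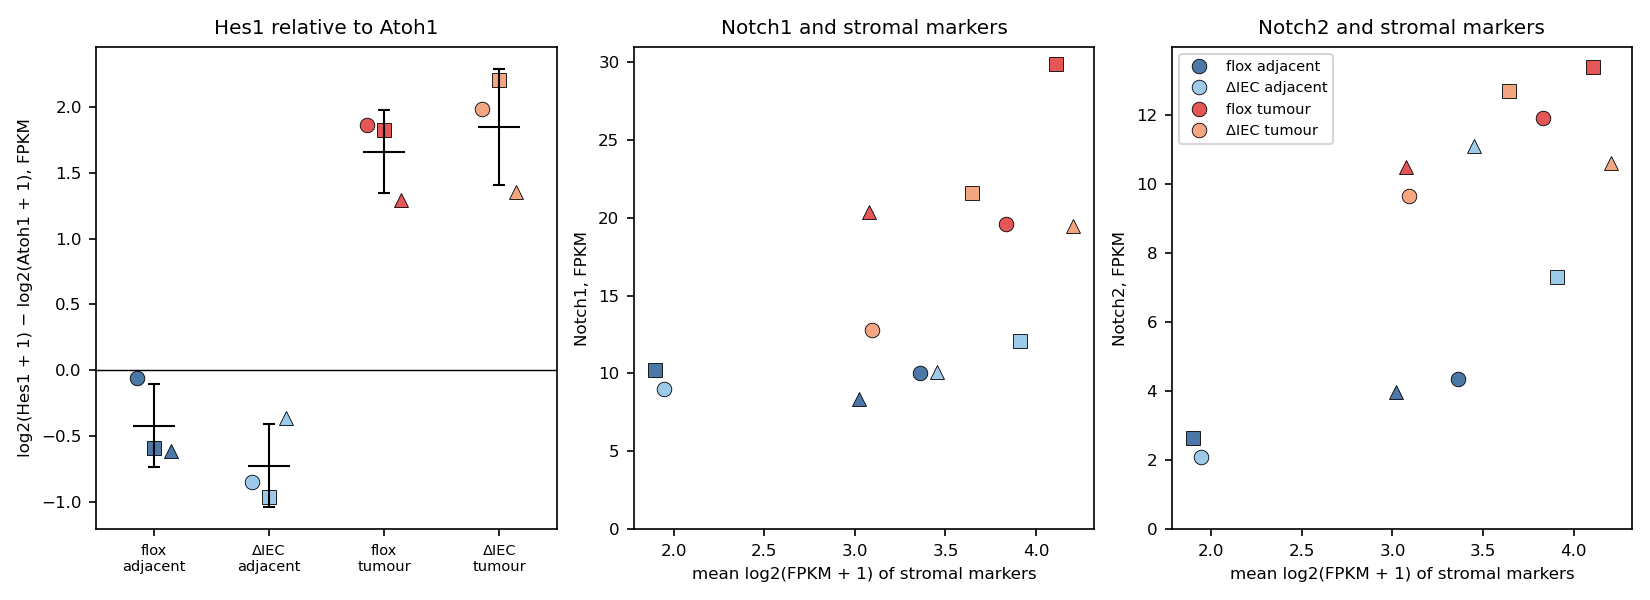
Left, log2(FPKM + 1) of Hes1 minus that of Atoh1 in each library, with group means and SD (n = 3); tumours lie between 1.30 and 2.21 and adjacent libraries between -0.96 and -0.06. Middle and right, FPKM of Notch1 and Notch2 against the mean log2(FPKM + 1) of endothelial, muscle and fibroblast markers. Notch2 is lowest in the 2 adjacent libraries with the lowest stromal means. Notch1 is at 12.8 FPKM or more in tumours and at 12.1 FPKM or less in adjacent colon. The part of stromal cells in these levels was not tested beyond the values given in the text.

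Deletion of Synbindin left no called difference in any member. Trappc4, the deleted gene, was not called either, though its genotypes did not overlap in either tissue. A missing call between genotypes therefore does not show that a difference is absent. In adjacent colon 7 members had values above 0 and 2 below, with a median of 0.19 beside -0.03 for all genes, and in tumours 1 was above and 8 were below, with a median of -0.12 beside -0.01. In both tissues limma called 0 genes (0%), and 702 genes in adjacent colon and 317 in tumours had an unadjusted p below 0.05, none of them a member. The member with the smallest p in adjacent colon was Hes1, whose ΔIEC and flox libraries did not overlap (24.1 ± 3.13 against 31.1 ± 2.64 FPKM, SD, n = 3 each), a separation in this direction that 5.14% of all genes had, beside 2.56% in the other direction. Its difference was -0.36 (95% interval -0.92 to 0.20, limma adjusted p = 0.931), and in tumours it was -0.04 (-0.60 to 0.52). No member separated the genotypes in tumours, where 3.03% and 3.74% of all genes did so upward and downward.
In tumours Notch1 had the smallest p, with 18.0 ± 4.62 FPKM in ΔIEC and 23.3 ± 5.77 in flox mice and a difference of -0.36 (-0.83 to 0.11, adjusted p = 1). For Atoh1 the interval ran from -0.65 to 0.53 in adjacent colon and from -0.81 to 0.37 in tumours, and for Spdef from -1.12 to 1.18 and from -1.22 to 1.08, so that a doubling or halving of Spdef lies within the interval. Notch2 in adjacent colon was called higher in ΔIEC mice only without ΔIEC adjacent replicate 1 (1.13, adjusted p = 0.0374), the library with the lowest Notch2 and a stromal mean of 1.95. No interaction of genotype and tissue was called for any of the 16970 genes (0%, limma), and 448 had an unadjusted p below 0.05. For the members the interaction ran from -0.67 for Notch2 to 0.33 for Hes1.

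The rest of the pathway was read from gene lists. Of the other receptors and ligands, 4 of 6 were tested and Jag2 was called, higher in both genotypes (0.945 ± 0.135 against 2.58 ± 0.846 FPKM in flox mice and 0.797 ± 0.278 against 2.26 ± 0.625 in ΔIEC mice, adjacent against tumour, SD, n = 3 each). Jag2 passed the filter on low values only through tumours, so that a higher level there was built into its being tested. Of all genes, 16.6% were called higher in flox and 13.9% in ΔIEC mice. Notch3 and Notch4, receptors of muscle and endothelium, did not pass, with differences of 0.75 and 0.40 in flox and 0.06 and -0.13 in ΔIEC mice.

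Genes that process the receptor or handle the ligand moved both ways. Of 25, 7 were higher and 7 lower in flox tumours, and 4 were higher and 5 lower in ΔIEC tumours, with 3 higher and 4 lower in both. Mib2, a ubiquitin ligase for Notch ligands, fell from 12.2 ± 0.605 to 5.81 ± 0.82 FPKM and from 11.9 ± 1.86 to 5.17 ± 0.992. Dtx4, a Deltex ubiquitin ligase, rose from 4.51 ± 0.619 to 11.9 ± 2.46 FPKM and from 4.86 ± 1.32 to 11.2 ± 0.689, and Neurl1a, a Neuralized ubiquitin ligase, rose from 0.903 ± 0.436 to 3.59 ± 1.63 and from 0.495 ± 0.208 to 3.13 ± 1.97 (SD, n = 3 each), and it passed the filter only through tumours. Neurl3, another Neuralized family ligase, fell from 67.7 ± 17.9 to 33.4 ± 12.3 FPKM in flox mice (SD, n = 3 each; log2 difference -1.02, limma adjusted p = 0.0159), and its difference in ΔIEC mice, -0.67, did not pass (adjusted p = 0.0899). The median of the list was 0.14 in flox and -0.004 in ΔIEC mice, beside -0.01 and -0.03 for all genes. Read against all genes called higher and lower in flox (16.6% and 19.7%) and ΔIEC mice (13.9% and 15.5%), these counts were above the background in flox and near it in ΔIEC mice.

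In the nuclear complex and its repressors, 2 of 14 genes were higher and 1 lower in flox tumours, and 2 higher and 1 lower in ΔIEC tumours. These shares were near or below those of all genes (16.6% higher and 19.7% lower in flox, 13.9% and 15.5% in ΔIEC mice). Ncor1, a corepressor, was the gene called in both, falling by 0.48 (limma adjusted p = 0.0056) and by 0.37 (adjusted p = 0.022). Maml2, a coactivator, and Rbpj, the DNA-binding factor of the complex, rose in flox mice (0.95, limma adjusted p = 0.0192, and 0.46, adjusted p = 0.0293) and did not pass in ΔIEC mice (0.48 and 0.31). Maml2 passed the filter only through tumours. Tle3, a Groucho corepressor, rose in ΔIEC mice (0.67, adjusted p = 0.0305) and had 0.31 in flox mice.

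The list of other Notch target genes and Hes relatives did not move as a block. Hes6 stands in it as a Hes relative, and its rise is not read as Notch activity. Of 13, 8 were tested, and 4 rose and 2 fell in each genotype. Of all genes, 16.6% were higher and 19.7% lower in flox, and 13.9% and 15.5% in ΔIEC mice. Of the listed genes called, Hey1 passed the filter only through tumours and Hes2, lower in ΔIEC mice, only through adjacent colon. Both were named for this after their values were seen. Hes6, a Hes relative that opposes Hes1, rose from 30.0 ± 5.99 to 90.6 ± 20.8 FPKM in flox and from 28.5 ± 1.13 to 84.4 ± 30.2 in ΔIEC mice (log2 differences 1.56 and 1.47, limma adjusted p = 0.00178 and 0.00372). Nrarp, a feedback inhibitor of the Notch complex, fell from 7.74 ± 1.01 to 3.27 ± 1.25 FPKM and from 8.47 ± 1.7 to 3.42 ± 1.03 (-1.07 and -1.11, adjusted p = 0.00713 and 0.00781). Myc and Ccnd1, growth and cell cycle genes with many other inputs, rose by 1.12 and 0.75 in flox and by 1.23 and 1.06 in ΔIEC tumours. The median of the 8 was 0.54 in flox and 0.65 in ΔIEC mice.

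Transcription factors of the secretory lineage split in the same way in both genotypes. Of 25, 20 were tested. In flox tumours 6 were higher and 9 lower, and in ΔIEC tumours 5 higher and 9 lower, and 5 and 9 of these genes were called in both. Of all genes, 16.6% were higher and 19.7% lower in flox, and 13.9% and 15.5% in ΔIEC mice. Of the 9 lower genes, Neurod1, Insm1, Nkx2-2 and Pou2f3 passed the filter only through adjacent colon, with at most 0.386 FPKM in any tumour, and Rcor2 among the higher ones passed only through tumours. A call in that direction was built into their being tested, so the counts are a description. Klf4, a factor of goblet cell differentiation, fell from 209.1 ± 47.6 to 43.0 ± 4.6 FPKM in flox and from 206.0 ± 65.8 to 47.7 ± 29.2 in ΔIEC mice. Creb3l1, a membrane-bound factor of secretory cells, fell from 61.5 ± 9.68 to 11.9 ± 5.75 and from 59.6 ± 6.52 to 18.3 ± 17.4. Sox4 rose from 12.5 ± 1.58 to 60.6 ± 8.67 and from 9.44 ± 1.52 to 52.6 ± 20.3, and Isl1, an enteroendocrine LIM factor, rose from 1.22 ± 1.06 to 35.8 ± 14.0 and from 1.90 ± 1.09 to 26.3 ± 28.8 (SD, n = 3 each). Isl1 varied most among ΔIEC tumours, at 59.5, 10.8 and 8.54 FPKM.

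**Figure D4:**
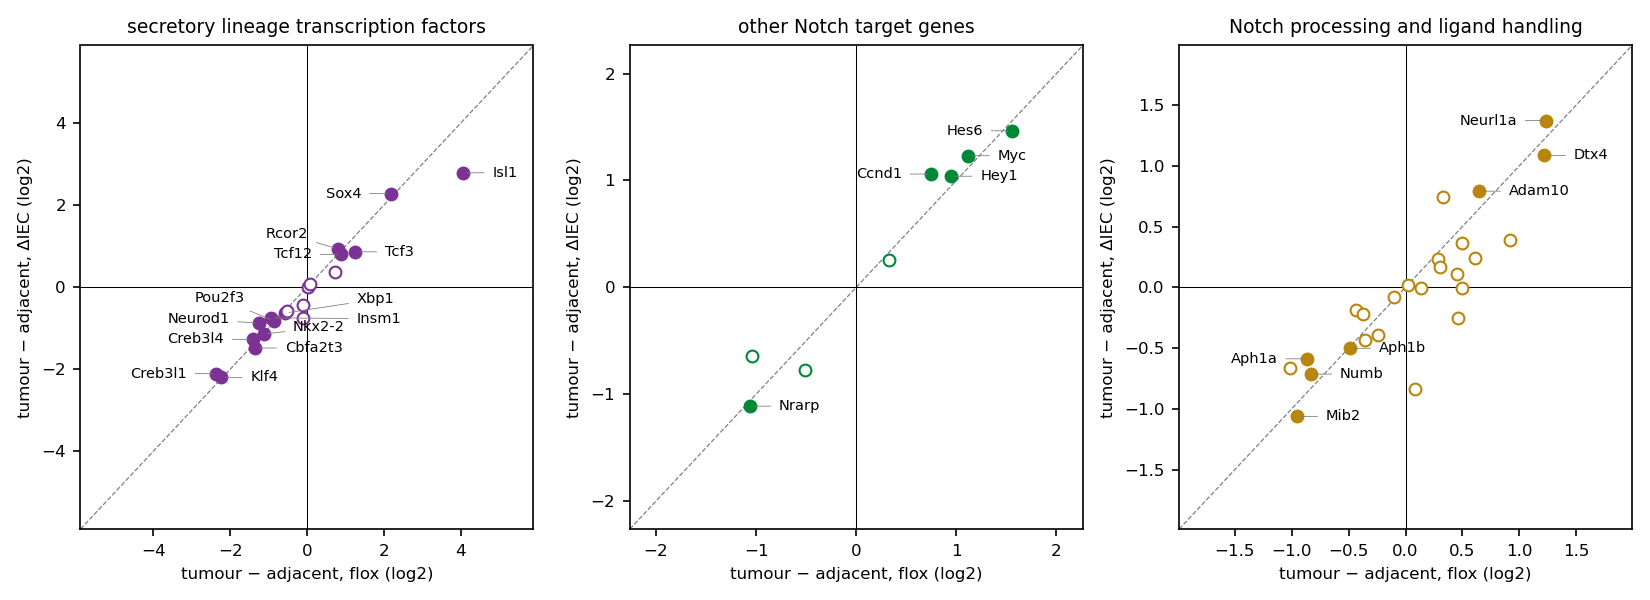
Tumour minus adjacent difference in log2(FPKM + 1) in flox mice (horizontal) and ΔIEC mice (vertical) for the tested genes of 3 lists, with filled points and names for genes called in both genotypes. Klf4 and Creb3l1 are low and Isl1 and Sox4 high in both, and genes of receptor processing fall on both sides of 0; the dashed line marks equal differences.

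Products of both cell fates were lower in tumours. Of 18 goblet cell products 11 were lower in flox and 13 in ΔIEC tumours, and none was called higher. Of all genes, 19.7% were called lower in flox and 15.5% in ΔIEC mice, which stands beside each list here. Zg16, a goblet cell lectin, fell from 3796 ± 721.6 to 149.7 ± 78.1 FPKM in flox mice, and Clca1, a secreted goblet protease, from 2397 ± 1265 to 125.2 ± 47.2 (SD, n = 3 each). Of 11 enteroendocrine products 9 and 8 were lower, among them Chga, a granule protein, from 56.9 ± 33.9 to 1.24 ± 0.734 FPKM in flox mice. Of the enteroendocrine products called lower, 4 in flox and 3 in ΔIEC mice passed the filter only through adjacent colon, as did 2 of the absorptive genes called lower in each genotype. Of 17 absorptive colonocyte genes, 13 and 10 were lower, among them Car4, a carbonic anhydrase, from 651.2 ± 287.6 to 8.48 ± 1.66. The list medians in flox and ΔIEC mice were -1.87 and -2.07 for goblet cells, -3.01 and -1.90 for enteroendocrine cells, and -3.05 and -2.30 for absorptive colonocytes, beside -0.01 and -0.03 for all genes. Several of these genes also differed among adjacent libraries with Hoxb13, such as Cyp2c55, with 71.6, 1074 and 1702 FPKM in flox adjacent replicates 1, 2 and 3.

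Of 11 tuft cell genes, 3 were called lower in flox and 4 in ΔIEC tumours and 1 was called higher in each, beside 19.7% and 15.5% of all genes lower and 16.6% and 13.9% higher. Rgs13, among the lower genes in both genotypes, passed the filter only through adjacent colon. A lower level in tumours was built into its being tested, so the counts are a description. Dclk1, a tuft cell kinase, fell by 1.78 (limma adjusted p = 0.00709) and by 2.28 (adjusted p = 0.0033), and Avil, an actin regulator, rose from 4.92 ± 2.08 to 36.1 ± 7.37 FPKM in flox mice and from 4.82 ± 2.15 to 34.9 ± 15.4 in ΔIEC mice (SD, n = 3 each).

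The transcripts behind the members were also read. Notch1 had 11 transcripts in the table, and the full-length Notch1-201, with 34 exons, held 70.3% of its summed FPKM, from 55.4% to 83.1% by library. The short non-coding Notch1-202, of 406 bases, held up to 27.2%. Notch2-201 held 86.1% of Notch2, Hes1-201 87.9% of Hes1, Spdef-201 91.3% of Spdef and Gfi1-202, whose start the printed Gfi1 promoter precedes, 77.1% of Gfi1. With protein-coding transcripts alone, the same 5 members were called in flox and the same 4 in ΔIEC mice.

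The genes whose levels were most like each member over the 12 libraries were sought among 9431 or 9432 protein-coding genes (a member that reached this level was left out of its own search) with a mean of at least 5 FPKM, as a description with no test. All 12 points share the contrast of tumour and adjacent colon, which by itself can give high correlations. Atoh1 was most like Hepacam2 (Pearson r = 0.988), Cldn15 (0.985) and Galnt10 (0.984), and Spdef most like Kdelr2 (0.993), Slc17a9 (0.988) and Tmem259 (0.985). Gfi1 was most like Capn10 (0.966), Dcun1d2 (0.960) and Ivd (0.955). Notch1 was most like Smoc2 (0.962), N4bp3 (0.955) and Ccdc86 (0.955), and Notch2 most like Msn (0.974), Trim59 (0.970) and Fscn1 (0.966). Dll4 was most like Gon4l (0.941), Adgrl2 (0.917) and Sox9 (0.904), Jag1 like Herc2 (0.858), Phf2 (0.858) and Capn15 (0.849), and Hes1 like Ddc (0.898), Nbeal2 (0.832) and Foxk1 (0.829).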

How the data were processed

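RNA was sequenced from tumours and adjacent colon. Per transcript, the authors deposited log2(FPKM + 1). FastQC, STAR 2.5, Cuffnorm and GRCm38 are named per the submitters' processing notes, with roles, settings and annotation not given in the sources used here. FPKM carries no read depth, so no counting interval is given. Of 123062 transcripts in the table, 118004 (95.89%) matched GENCODE M21; the rest held 4.36% to 7.45% of a library's summed FPKM and were left out. FPKM was recovered from the logs and added up over each gene's transcripts. Genes reaching an FPKM of 1 in 3 or more libraries were tested with limma 3.58.1 (R 4.3.3; lmFit, contrasts.fit, eBayes with trend and robust) on log2(FPKM + 1), pseudocount 1, 1 mean per group and no block, with 8 residual degrees of freedom. The procedure was tested on simulated data. The Hes1 to Atoh1 balance had an exact permutation test (Python 3.11.15, scipy 1.17.1).

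Members and lists were chosen with earlier results of these data known. Named genes are the members, Trappc4, up to 4 called genes of each list with the largest differences, and the 3 genes most like each member; Notch3, Notch4, Hoxb13 and Hoxb8 were added after their values were seen. Of the listed genes, 1 of receptor processing and 1 of the nuclear complex are not reported here and not counted. Alternatives were another pseudocount and other filters, quantile normalization, median centring, scaling to protein-coding genes, plain eBayes, fits of the compared groups only, replicate blocks, and leaving out each library. Chosen after seeing the data were protein-coding transcripts only, and adjacent libraries split by stromal markers or Hoxb13. Title numbers and description codes do not establish pairs: of 5 pairs of libraries that share a code, 2 had deviations correlated above 0.1 (range -0.192 to 0.17).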

Additional observations from a re-analysis of the deposited data

How the results depend on the processing

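The 45 member differences were recomputed under alternatives that gave 890 values. Of these 801 kept their direction and side of the threshold, 26 lost the call, 4 gained it and 59 changed sign, none of the last from or to a called difference. All called directions held under every scaling, and Atoh1 kept its calls in all settings. The sign changes of uncalled differences were as follows. Dll4 in ΔIEC tumours against adjacent colon was -0.0067 with a pseudocount of 0.1, -0.0117 after quantile normalization, -0.038 with protein-coding transcripts, -0.0246 with the adjacent libraries of high stromal mean and -0.1302 with those of high Hoxb13. Jag1 in flox tumours was -0.0434 after quantile normalization, -0.0373 after median centring and -0.06 with protein-coding transcripts. Dll1 and Hes1 in flox tumours were 0.222 and 0.1555 after scaling to protein-coding genes, which moved the median of all genes by 0.36 in flox and 0.25 in ΔIEC mice. Hes1 in ΔIEC tumours was -0.0389 (high stroma) and -0.1404 (high Hoxb13), Notch2 there -0.0218 (high Hoxb13) and Dll1 0.2858 (low stroma). Between genotypes in adjacent colon, Atoh1 was 0.0253 (quantile), 0.0237 (protein-coding scaling) and 0.1982 (high stroma), Spdef -0.0166 (median centring), Dll4 -0.0235 (high stroma), and Notch1, Notch2 and Dll1 -0.0398, -0.4648 and -0.1798 (low stroma), where the interactions of Notch2 and Dll1 were 0.3484 and 0.3723.

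Leaving out 1 library at a time gave these ranges. Between genotypes in adjacent colon Spdef ran from -0.4291 to 0.4784 and Atoh1 from -0.1745 to 0.0289. Between genotypes in tumours Spdef ran from -0.4868 to 0.2292, Hes1 from -0.3008 to 0.2213, Gfi1 from -0.222 to 0.0427 and Atoh1 from -0.4631 to 0.1041. Between tissues Jag1 in flox mice ran from -0.1119 to 0.1771, and in ΔIEC mice Dll4 from -0.204 to 0.239 and Hes1 from -0.2188 to 0.3033. The interaction of Spdef ran from -0.5509 to 0.3566, of Dll1 from -0.3949 to 0.0967 and of Atoh1 from -0.4052 to 0.162, and the genotype difference of the Hes1 to Atoh1 balance from -0.149 to 0.066. Genes called between tissues ran from 3891 (without flox adjacent replicate 2) to 5911 in flox mice, with 3 to 5 members, and from 2910 (without tumour replicate 1) to 5078 in ΔIEC mice. Genes called between genotypes ran from 0 to 299 in adjacent colon, with 0 to 1 member, the highest without ΔIEC adjacent replicate 1, and from 0 to 3 in tumours. Interactions ran from 0 to 1.

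In other settings, 8 genes were called between genotypes in tumours with no filter and 1 with the compared groups only, which gave 2564 genes between tissues in ΔIEC mice. With low-stroma adjacent libraries 4 genes were called between genotypes in adjacent colon and 3 for the interaction. With high-stroma ones it was 5 and 2, with 1 between genotypes in tumours, 2007 and 2 members between tissues in flox mice and 2862 in ΔIEC mice. With high-Hoxb13 ones, where each genotype keeps 1 adjacent library, it was 1715 and 2 members in flox mice and 859 and 1 member in ΔIEC mice. The cause of these changes was not tested, beyond the fewer libraries in each fit.

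A replicate block by title number left 5 members called in flox and 4 in ΔIEC mice (5387 and 4115 genes). A block by description code left 651 genes and 1 member, Atoh1, in ΔIEC mice, with Notch1 at 0.83 (limma adjusted p = 0.0583), Spdef at -2.11 (adjusted p = 0.0906) and Gfi1 at -1.15 (adjusted p = 0.0754), and the interactions of Atoh1 and Spdef at 0.139 and 0.4506. The block spends residual degrees of freedom (3 remained), and the pairing it assumes is not established. FPKM values give no depth, so what sequencing depth limits, above all for Gfi1, is unknown.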
